A study of Mus musculus with 8 samples.

Results

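Receptor genes for mediators of itch, pain and inflammation, 10 in all, were followed here in sensory neurons: Hrh1, Hrh2 and Hrh3 for histamine, F2r, F2rl1 and F2rl2 for proteases, Ednra and Ednrb for endothelins, and Bdkrb1 and Bdkrb2 for kinins. They were taken by symbol from a table of 43372 genes, and all 10 were listed there. The table holds RNA sequencing of neurons from mouse dorsal root ganglia, the clusters beside the spinal cord that house the cell bodies of sensory neurons. The Sst libraries (n = 4) came from C57Bl/6 mice of genotype Ssttm2.1(cre)Zjh/J, called Sst-IRES-Cre, in which Cre recombinase is made from the somatostatin locus. The Trpv1 libraries (n = 4) came from C57Bl/6 mice of genotype Trpv1tm1(cre)Bbm/J, called Trpv1-IRES-Cre, in which Cre is made from the locus of the heat and capsaicin channel. All pups, of both genotypes, received 10 µL of an AAV9 vector with a Cre-dependent fluorescent protein (eGFP or tdTomato) into the peritoneum at postnatal day 2. At 3 to 5 weeks of age, fluorescent neurons of mice of both sexes were picked by hand from dissociated ganglia, 150 to 250 per mouse. There was no unlabelled or treated group, so the data compare neurons reached by either Cre line and not the response to a mediator.

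All 10 genes encode receptors of the G protein-coupled class. Histamine receptors differ in the G protein they use: H1 raises calcium through Gq, H2 raises cyclic AMP through Gs, and H3 is an inhibitory receptor best known on nerve terminals. Protease-activated receptors (PARs) carry their own ligand, a stretch of the N-terminus that is uncovered when a protease cuts it: thrombin cuts PAR1 (F2r) and PAR3 (F2rl2), and trypsin and the mast cell protease tryptase cut PAR2 (F2rl1). In mouse platelets PAR3 serves as a cofactor for PAR4. Endothelin A and B receptors bind the vasoactive endothelin peptides, and the B receptor is prominent in glia. Kinins act through the B2 receptor (Bdkrb2), usually made constitutively, and the B1 receptor (Bdkrb1), usually induced by injury or inflammation.

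Library totals ran from 9021125 to 12153109 counts for Sst and from 7419027 to 9568508 counts for Trpv1. The genes behind the Cre lines were counted in all libraries: Sst averaged 198 ± 106 CPM (counts per 1000000 of the scaled library total) in Sst and 94.2 ± 47.4 CPM in Trpv1 libraries, and Trpv1 averaged 101 ± 69.2 CPM in Sst and 195 ± 77.9 CPM in Trpv1 libraries (SD, n = 4 each). Neither passed the test across all genes (edgeR adjusted p = 0.0753 and 0.109). Pan-neuronal marker genes, all 8 with counts, summed to between 5375 and 6147 CPM in Sst and between 3120 and 3714 CPM in Trpv1 libraries. Snap25 alone gave 3648 to 4466 CPM in Sst and 1709 to 2290 CPM in Trpv1 libraries and was the 1 of the 8 called, and the remaining genes summed to overlapping ranges, 1527 to 1895 CPM in Sst and 1312 to 1869 CPM in Trpv1 libraries. Peptidergic markers, 9 of 9 with counts, summed to 114 to 246 CPM in Sst and 2148 to 2968 CPM in Trpv1 libraries, while myelinated-neuron markers, 14 of 14 with counts, summed to 4828 to 8420 CPM in Sst and 2640 to 3766 CPM in Trpv1 libraries. Xist, expressed from an inactivated X chromosome, was absent (0 counts) from Trpv1 replicates 1 and 2 and present in the other 6 libraries, so sex and genotype are partly aligned.

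None of the 10 receptor genes was called different between the populations. Counts were compared with edgeR's quasi-likelihood test (adjusted p under 0.05, Benjamini-Hochberg over all genes tested), and 7 members passed its filter on low counts. Of those 7, 0 were called, where 751 of 11828 genes tested, 6.35%, were called. By unadjusted p 1 of the 7, Ednrb, lay under 0.05, against 20.5% of all genes tested, and DESeq2 and limma voom also called 0. In none of the 7 did the CPM values of the groups stand apart, where 11.1% of all genes tested showed no overlap. The median log2 fold change of the 7, Sst over Trpv1, was 0.17, beside 0.01 over all genes tested, and their median absolute log2 fold change was 0.89, beside 0.53. A missed threshold does not show equal expression, and the intervals given for each gene say how large a difference the libraries still allow.

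The receptor genes differed far more from each other than between populations. Scaled to exon length, F2rl2 stood at 180 ± 44.2 CPM per kb in Sst and 174 ± 49.9 CPM per kb in Trpv1 libraries (SD, n = 4 each), and its lowest library lay above the highest library of any other member in both groups. In Sst libraries the order of mean length-scaled level continued with F2rl1 (17.6 CPM per kb), Ednrb (3.70), F2r (3.55), Hrh1 (2.21), Hrh2 (1.46), Ednra (1.14), Hrh3 (0.579), Bdkrb1 (0.226) and Bdkrb2 (0). In Trpv1 libraries it continued with Ednrb (8.63 CPM per kb), F2rl1 (8.22), F2r (3.96), Hrh2 (1.31), Hrh1 (1.16), Ednra (0.487), Bdkrb2 (0.142), Hrh3 (0.0895) and Bdkrb1 (0). After F2rl2, every pair of neighbours in either order had overlapping ranges over the 4 libraries, so the order among them is loose. Of all counts in the 10 genes, F2rl2 took 82.1% ± 6.13 in Sst and 82.6% ± 3.20 in Trpv1 libraries. The libraries are pools, so fewer expressing cells and less RNA per cell cannot be told apart in any of these values.

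**Figure D1:**
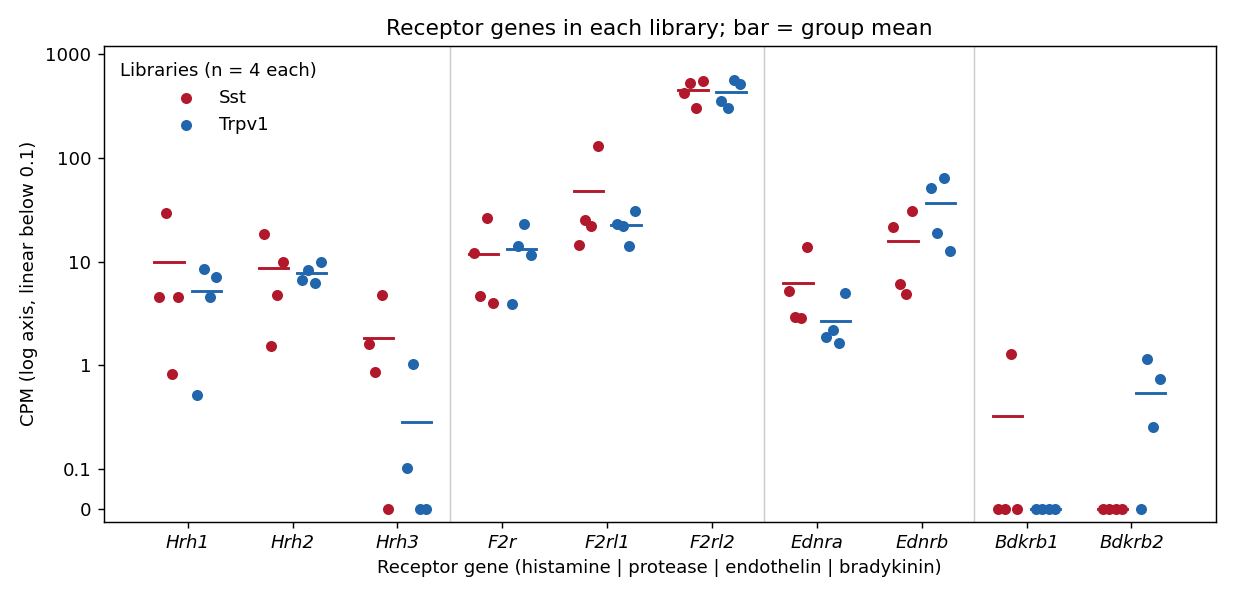
CPM of the 10 receptor genes in each library (points) with the group mean (bars), on a log axis that is linear below 0.1, Sst in red left of Trpv1 in blue. F2rl2 lies between 305 and 567 CPM in all 8 libraries, and the points of the groups overlap for every gene.

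**Figure D2:**
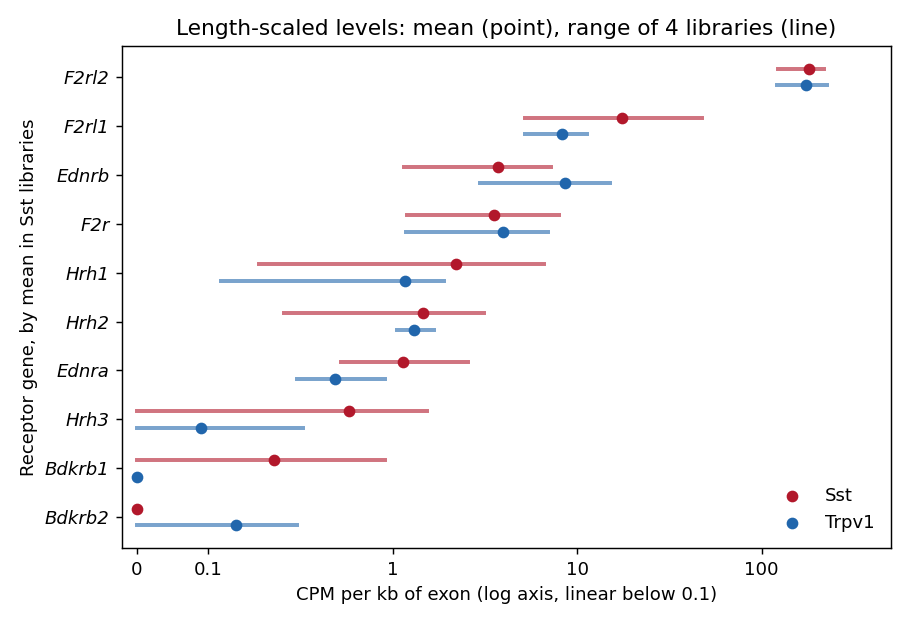
Mean level (points) and range over 4 libraries (lines) in CPM per kb of exon for each receptor gene, Sst in red above Trpv1 in blue, on a log axis that is linear below 0.1. Only F2rl2 is separated from the other members in both groups.

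F2rl2, the PAR3 gene, was among the most abundant transcripts of both populations: its mean CPM was higher than that of 98.1% of the genes tested. It stood at 426, 528, 305 and 546 CPM in Sst replicates 1 to 4, against 357, 305, 567 and 514 CPM in Trpv1 replicates 1 to 4. The groups covered nearly the same range, with highest to lowest ratios of 1.79 in Sst and 1.86 in Trpv1 libraries. The log2 fold change was 0.05 (SE 0.225, edgeR quasi-likelihood test, adjusted p = 0.930), and its 95% interval allowed Sst levels from 0.750 to 1.43 times those of Trpv1. Its sign is not settled: with a term for Xist the value was −0.26 (edgeR adjusted p = 0.643), and in the 6 libraries with Xist it was −0.24 (edgeR adjusted p = 0.706). F2rl2 was also the steadiest tested member, with a pooled within-group SD of 0.406 in log2 CPM. The median over all genes tested was 0.786, but the comparison was not matched for level. F2rl2 lies on chromosome 13 (GRCm38, 95696853 to 95702739, plus strand), inside an intron of Iqgap2 on the opposite strand, with 0 bases of shared exon. Iqgap2 held 38 to 232 counts per library, against 2381 to 6018 counts of F2rl2.

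The PAR genes sit side by side on chromosome 13, F2r 78.4 kb from F2rl2 and F2rl1 a further 76.6 kb away, yet their levels differ widely. Per kb of exon, the median ratio of F2rl2 to F2r was 98.6 in Sst and 45.7 in Trpv1 libraries, and that of F2rl2 to F2rl1 was 19.0 in Sst and 17.6 in Trpv1 libraries. The sequences before the starts of the neighbours F2rl2 and F2r are shown because this pair has the widest gap in level among the 3 PAR genes and the windows differ in base composition (RefSeq, GRCm38.p6, 5′ to 3′, cut before the start in RefSeq and in GENCODE M21; capitals mark CG dinucleotides).
F2rl2, chr13:95696670-95696852, plus strand: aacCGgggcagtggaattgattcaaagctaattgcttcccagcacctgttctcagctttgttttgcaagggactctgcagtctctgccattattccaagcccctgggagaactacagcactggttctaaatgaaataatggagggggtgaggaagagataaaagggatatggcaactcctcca
F2r, chr13:95618488-95618716, minus strand: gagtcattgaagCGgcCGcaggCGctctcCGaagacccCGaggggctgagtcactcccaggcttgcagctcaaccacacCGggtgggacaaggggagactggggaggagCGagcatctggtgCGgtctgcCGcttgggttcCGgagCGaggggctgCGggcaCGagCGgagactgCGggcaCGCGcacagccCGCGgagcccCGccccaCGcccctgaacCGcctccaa
The 183 bases printed for F2rl2 hold 1 CG and the 229 bases printed for F2r hold 22. In the full 300-base windows (250 bases before and 50 after the RefSeq start), F2rl2 had 2 CG dinucleotides, and 23.3% of 32851 mouse windows held as few or fewer. F2r had 28, and 87.1% of windows held as few or fewer. Of the 10 members 8 had such windows, with 2 to 47 CG each, F2rl2 having the fewest. This describes the sequence, and its relation to the levels was not tested.

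F2rl1, the PAR2 gene, was next among the protease receptors, and its higher mean in Sst came from a single library. It stood at 14.3, 25.1, 22.2 and 131 CPM in Sst replicates 1 to 4, against 23.0, 22.0, 14.2 and 31.0 CPM in Trpv1 replicates 1 to 4. Sst replicate 4 held 1442 of the 2056 Sst counts (70.1%), and the other 3 Sst libraries lay within the Trpv1 range. Sst over Trpv1 gave a log2 fold change of 1.10 (SE 0.552, 95% interval −0.04 to 2.24, edgeR adjusted p = 0.268). Without Sst replicate 4 it was −0.15 (edgeR adjusted p = 0.903). F2rl3, the PAR4 gene and not a member, had the same high library, with 1, 14, 0 and 315 counts in Sst replicates 1 to 4, against 0, 0, 0 and 23 counts in Trpv1 replicates 1 to 4. In Sst replicate 4 the summed markers of fibroblasts (508 CPM, against 107 to 142 CPM in the other Sst libraries) and of satellite glia (794 CPM, against 415 to 467 CPM) were also the highest of the Sst group, with 8 of 8 genes of each list counted somewhere. The same library was the highest of the Sst group for markers of NP3 neurons (9390 CPM, against 5794 to 6577 CPM), the itch neuron class that makes Nppb and Sst, of Schwann cells (673 CPM, against 413 to 492 CPM) and of endothelial cells (71.5 CPM, against 8.90 to 60.6 CPM). Of the NP3 sum in Sst replicate 4, Jak1 gave 3789 CPM and Osmr 1573 CPM, against 335 CPM for Sst and 62.9 CPM for Nppb. The NP3 marker Nts stood at 38.4 CPM there, against 40.0 CPM in Sst replicate 1. Within the Sst group, replicate 4 was also highest for NP1 neuron markers (758 CPM, against 579 to 679 CPM). The same held for NP2 neurons (193 CPM, against 127 to 160 CPM) and peptidergic neurons (246 CPM, against 114 to 241 CPM). That library was lowest for myelinated-neuron markers (4828 CPM, against 6372 to 8420 CPM) and pan-neuronal markers (5375 CPM, against 5543 to 6147 CPM). Fibroblast markers reached 418 CPM in Trpv1 replicate 2, where F2rl1 stood at 22.0 CPM. The part of these cell types in the F2rl1 value was not tested. F2rl1 lies on chromosome 13 (95511732 to 95525227, minus strand).

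F2r, the PAR1 gene (chromosome 13, 95601803 to 95618487, minus strand), was low in both populations. It stood at 12.1, 4.69, 26.6 and 3.99 CPM in Sst replicates 1 to 4, against 3.93, 14.2, 23.1 and 11.7 CPM in Trpv1 replicates 1 to 4. The groups overlapped almost fully, each reaching from about 4 CPM to above 23 CPM. Its log2 fold change was −0.10 (SE 0.641, 95% interval −1.43 to 1.22, edgeR adjusted p = 0.949), and its sign changed in 5 of 19 alternative analyses. Sst replicate 3 held 58.0% of the Sst counts, and without it the value was −0.88 (edgeR adjusted p = 0.573).

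Histamine receptor transcripts were scarce, and their spread between libraries was wide in the Sst group. Hrh1, the H1 receptor gene through which histamine excites many itch neurons (on the plus strand of chromosome 6, 114397936 to 114483296), stood at 4.58, 29.4, 0.834 and 4.53 CPM in Sst replicates 1 to 4, against 0.517, 8.44, 4.57 and 7.11 CPM in Trpv1 replicates 1 to 4. Sst replicate 2 held 270 of the 375 Sst counts, and the remaining Sst libraries lay below the Trpv1 mean of 5.16 CPM. The log2 fold change was 0.89 (SE 0.849, 95% interval −0.86 to 2.65, edgeR adjusted p = 0.614), and without Sst replicate 2 it was −0.59 (edgeR adjusted p = 0.776). Hrh1 was the most variable tested member, with a pooled within-group SD of 1.82 in log2 CPM, larger than that of 90.5% of the genes tested. Its mean CPM was higher than that of 31.4% of those genes, and the SDs were not matched for level. Sst replicate 2 was also the highest Sst library for pituitary markers (457 CPM, against 0.0907 to 3.88 CPM in the other Sst libraries, with 6 of 7 genes counted somewhere) and for mural markers (784 CPM, against 401 to 583 CPM). Endothelial markers summed to 60.6 CPM there, against 8.90 to 71.5 CPM in the other Sst libraries. In Trpv1 replicates 1 to 3, with pituitary sums of 1634 to 1750 CPM, Hrh1 stood at 0.517 to 8.44 CPM. The part of these markers' cells in the Hrh1 value was not tested.

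Hrh2, the H2 receptor gene (on the plus strand of chromosome 13, 54192129 to 54236180), was steady in Trpv1 and variable in Sst libraries. It stood at 18.4, 1.53, 4.82 and 9.89 CPM in Sst replicates 1 to 4, against 6.62, 8.31, 6.22 and 9.87 CPM in Trpv1 replicates 1 to 4. The Sst values enclosed the Trpv1 values. Its log2 fold change was 0.17 (SE 0.671, 95% interval −1.22 to 1.56, edgeR adjusted p = 0.922), and without Sst replicate 1 it was −0.47 (edgeR adjusted p = 0.803). Gm16578 lies on the opposite strand and shares 145 exon bases with Hrh2. It held 143 counts in Sst replicate 2, where Hrh2 held 14, and at most 13 counts in any other library. The strand setting of the counting is unknown here, so reads in the shared bases cannot be told apart.

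Hrh3, the H3 autoreceptor gene (chromosome 2, 180099465 to 180104488, minus strand), did not pass the filter on low counts. It held 16, 8, 52 and 0 counts in Sst replicates 1 to 4, against 1, 8, 0 and 0 counts in Trpv1 replicates 1 to 4, or means of 1.82 ± 2.10 CPM in Sst and 0.282 ± 0.497 CPM in Trpv1 libraries (SD, n = 4 each). Libraries of both groups lay at 0, and Sst replicate 3 held 68.4% of the Sst counts. In an edgeR fit of all genes with a count, its adjusted p was 0.508. Gm17180, on the opposite strand, shares 349 exon bases with Hrh3 and held 0 counts in all libraries, and reads there cannot be told apart by strand. A per-library floor of 3 counts corresponded to 0.272 to 0.384 CPM; these reads carried no molecular identifiers, so floors cover counting error only.

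The endothelin receptor genes leaned in opposite directions, and neither was called. Ednrb, the B receptor gene (chromosome 14, 103814625 to 103844402, minus strand), stood at 21.4, 6.10, 4.91 and 30.7 CPM in Sst replicates 1 to 4, against 51.7, 19.1, 63.8 and 12.6 CPM in Trpv1 replicates 1 to 4. Trpv1 replicates 1 and 3 lay above every Sst library, and Trpv1 replicates 2 and 4 lay among the Sst values. Its log2 fold change was −1.20 (SE 0.557, 95% interval −2.35 to −0.04, edgeR adjusted p = 0.224), the smallest p among the members. Leaving out single libraries moved it between −1.76 (without Sst replicate 4, edgeR adjusted p = 0.0905) and −0.81 (without Trpv1 replicate 3, edgeR adjusted p = 0.529). In the 4 libraries with at most 1 count of Gh or of Prl (3 Sst, 1 Trpv1) it was 0.62 (edgeR adjusted p = 0.822). Markers of satellite glia, which are known to carry Ednrb, summed to 415 to 794 CPM in Sst and 312 to 610 CPM in Trpv1 libraries. All 8 genes of that list were counted somewhere, and 0 of 7 tested were called. Glul alone gave 211 to 467 CPM in Sst and 128 to 252 CPM in Trpv1 libraries, and Slc1a3 was at 0 in Sst replicates 3 and 4. The satellite glia sum was 531 and 375 CPM in Trpv1 replicates 1 and 3, the libraries with the most Ednrb. Schwann cell markers summed to 413 to 673 CPM in Sst and 606 to 821 CPM in Trpv1 libraries. Of 6 tested Schwann cell genes 0 were called. The sum was 821 and 632 CPM in Trpv1 replicates 1 and 3, replicate 1 being the highest of all 8 libraries. Pmp22 alone gave 563 and 528 CPM there, against 227 to 369 CPM in Sst libraries. It gave 356 and 437 CPM in Trpv1 replicates 2 and 4. Of the rest, Mbp was lowest of all 8 libraries in Trpv1 replicate 3 (41.2 CPM), and Egr2 highest (16.8 CPM). The part of glial RNA in the Ednrb level was not tested.

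Ednra, the A receptor gene (chromosome 8, 77663031 to 77724464, minus strand), was the least abundant tested member by CPM. It stood at 5.18, 2.94, 2.87 and 13.97 CPM in Sst replicates 1 to 4, against 1.86, 2.17, 1.65 and 4.99 CPM in Trpv1 replicates 1 to 4. Replicate 4 was the highest of each group, and the Trpv1 value of 4.99 CPM lay above 2 Sst values. The log2 fold change was 1.23 (SE 0.777, 95% interval −0.38 to 2.83, edgeR adjusted p = 0.400), and 0.43 without Sst replicate 4 (edgeR adjusted p = 0.815). Vascular mural cells are a known site of Ednra. Their 10 markers, all with counts, summed to 401 to 784 CPM in Sst and 178 to 340 CPM in Trpv1 libraries. Rgs5 made up 97.1% to 98.7% of the sum in Sst and 75.1% to 97.2% in Trpv1 libraries, and the remaining genes summed to 6.27 to 22.8 CPM in Sst and 6.73 to 48.1 CPM in Trpv1 libraries. Of 5 mural genes tested 1 was called higher and 1 lower in Sst libraries. The smooth muscle gene Acta2 was at 0.531 CPM or less in every library. Per kb of exon, the ratio of Ednrb to Ednra ran from 2.19 to 5.31 in Sst and from 3.25 to 49.7 in Trpv1 libraries, which overlap.

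**Figure D3:**
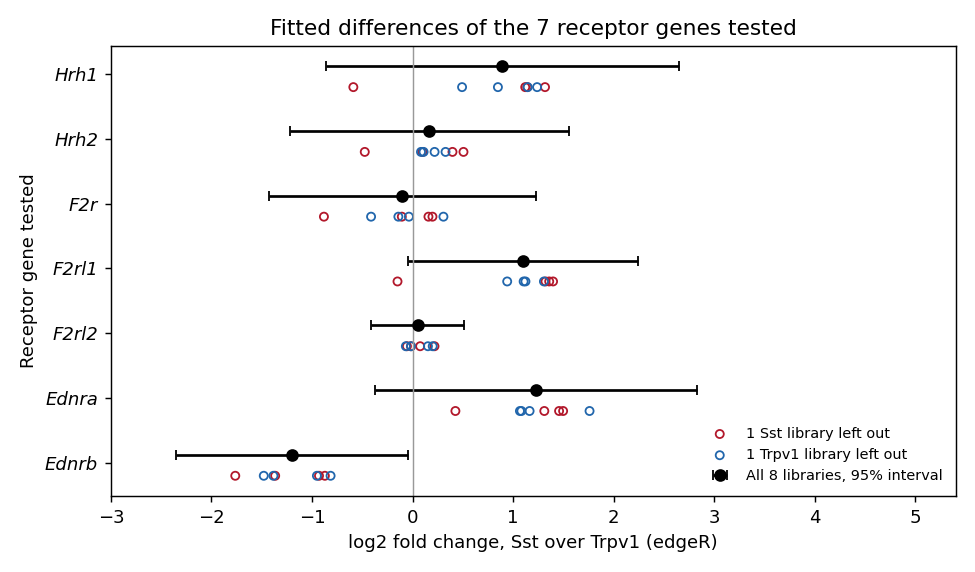
Log2 fold change, Sst over Trpv1, of the 7 receptor genes tested: black points with 95% intervals from all 8 libraries, and open circles for fits with 1 library left out (red, an Sst library; blue, a Trpv1 library). F2rl2 has the narrowest interval, and the value of F2rl1 falls to −0.15 without Sst replicate 4.

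Bradykinin receptor transcripts were at the edge of detection. Bdkrb2 (chromosome 12, 105563226 to 105595237, plus strand) held 0 counts in all 4 Sst libraries, against 0, 9, 2 and 7 counts in Trpv1 replicates 1 to 4. Set against a floor of 3 counts over the Sst group, its 18 Trpv1 counts gave a ratio of 7.08-fold lower in Sst libraries. The floor covers counting error on the Sst side only. The Trpv1 counts were taken as exact and Trpv1 replicate 1 also held 0, so the ratio is not a lower bound. In the edgeR fit of all genes with a count the adjusted p of Bdkrb2 was 0.634. Bdkrb1, which starts 7.85 kb further on (105603085 to 105605428, plus strand), held 14 counts in Sst replicate 3, or 1.30 CPM, and 0 counts in the other 7 libraries. Against the floor of 3 counts over the Trpv1 group its ratio was 3.96-fold higher in Sst. That ratio is not a lower bound either and rests on that library (edgeR adjusted p = 0.757). A floor of 3 counts over a group corresponded to 0.0731 CPM in Sst and 0.0862 CPM in Trpv1 libraries.

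Genes that work with these receptors, and related receptors outside the members, were taken in 9 lists. These lists held 119 symbols, of which 117 were in the table and 72 were tested. Of the 72 genes 11 were called, 3 higher and 8 lower in Sst libraries (15.3%; 3.04% of all genes tested were called higher and 3.31% lower), with a median log2 fold change of −0.12. In the 6 libraries with Xist 5 were called, with a term for Xist 6, without Sst replicate 3 also 6, and without Trpv1 replicate 1 there were 7.

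Several genes for the ligands were without counts in the picked neurons. Of 24 genes for activating proteases and their inhibitors 11 had 0 counts in all libraries, among them the prothrombin gene F2, the trypsin genes Prss1 and Prss2 and the mast cell tryptase genes Tpsab1 and Tpsb2. Of the 4 tested, 1 was called: Thbd, which encodes thrombomodulin, the thrombin-binding membrane protein, stood at 23.2 ± 7.80 CPM in Sst and 62.8 ± 20.1 CPM in Trpv1 libraries (edgeR adjusted p = 0.0217, log2 fold change −1.44). Its call was lost without Sst replicate 1 (−1.49, edgeR adjusted p = 0.0537), Sst replicate 3 (−1.21, 0.0854) or Trpv1 replicate 1 (−1.18, 0.110). None of 4 tested histamine genes was called. Maoa, an amine-degrading enzyme and the most abundant of them, stood at 39.9 ± 16.3 CPM in Sst and 28.0 ± 19.2 CPM in Trpv1 libraries (edgeR adjusted p = 0.613, log2 fold change 0.50). Likewise 0 of 3 tested endothelin genes were called, with Ece1, the endothelin-converting enzyme, at 110 ± 21.1 CPM in Sst and 131 ± 31.4 CPM in Trpv1 libraries (−0.25, edgeR adjusted p = 0.646). Mast cells, a main source of histamine and tryptase, left almost no marker counts: their 8 markers summed to at most 1.90 CPM in Sst and 2.76 CPM in Trpv1 libraries, with Mcpt4, Tpsb2, Tpsab1, Fcer1a and Ms4a2 at 0 counts.

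In the kinin list 1 of 6 tested genes was called. Cpm encodes carboxypeptidase M, which trims kinins into agonists of the B1 receptor. It stood at 0.214 ± 0.167 CPM in Sst and 6.93 ± 5.54 CPM in Trpv1 libraries (edgeR adjusted p = 0.0217, log2 fold change −4.86, SE 1.27). Its call was lost without Sst replicate 1 (−5.28, edgeR adjusted p = 0.0618), 2 (−4.50, 0.0512) or 3 (−4.77, 0.0666). With all libraries, limma voom did not call Cpm (−4.32, voom adjusted p = 0.0867), and the stricter filter left it untested. The kininogen gene Kng1 and the kallikrein genes Klk1 and Klkb1 had 0 counts in all libraries.

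Among related receptors outside the members, 2 of 5 tested were called, both lower in Sst libraries. Mrgpra3, which encodes the chloroquine receptor of itch neurons, stood at 7.88 ± 5.55 CPM in Sst and 208 ± 98.2 CPM in Trpv1 libraries (edgeR adjusted p = 1.36e-07, log2 fold change −4.76). Mrgprx1 stood at 6.65 ± 1.67 CPM in Sst and 79.6 ± 33.0 CPM in Trpv1 libraries (−3.57, edgeR adjusted p = 9.35e-06). Mrgpr genes resemble each other closely, so reads can be shared between them.

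Among the G proteins and enzymes downstream of the receptors, none of 12 tested G alpha genes was called. Gnao1, the Go subunit gene and the most abundant over both groups together (Gnal was higher in Sst libraries, at 1668 ± 367 CPM), stood at 1458 ± 301 CPM in Sst and 2129 ± 374 CPM in Trpv1 libraries (edgeR adjusted p = 0.0533, log2 fold change −0.55), and it was called in 6 of 19 alternative analyses. Of 14 tested Gq effectors 1 was called: Prkcb, a protein kinase C gene, stood at 13.0 ± 4.57 CPM in Sst and 40.5 ± 4.65 CPM in Trpv1 libraries (−1.65, edgeR adjusted p = 0.0192), a call lost without Sst replicate 3 (−1.61, edgeR adjusted p = 0.0554) or Trpv1 replicate 2 (−1.55, 0.0539). Of 12 tested genes for receptor desensitization and trafficking 0 were called, and Rgs4, a G protein regulator and the most abundant, stood at 899 ± 106 CPM in Sst and 1073 ± 99.7 CPM in Trpv1 libraries (−0.26, edgeR adjusted p = 0.398).

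Of 12 tested genes for channels on which these receptors act 6 were called, 3 in each direction. Trpa1, the irritant channel gene, stood at 14.4 ± 7.44 CPM in Sst and 188 ± 43.2 CPM in Trpv1 libraries (edgeR adjusted p = 1.60e-07, log2 fold change −3.70). Subunit genes of the M-type potassium channel, which Gq-coupled receptors close, changed in both directions. Kcnq3 stood at 183 ± 45.6 CPM in Sst and 12.7 ± 11.3 CPM in Trpv1 libraries (3.90, edgeR adjusted p = 1.16e-06). Kcnq5 stood at 3.16 ± 1.39 CPM in Sst and 49.5 ± 45.5 CPM in Trpv1 libraries (−3.96, edgeR adjusted p = 0.000458). Trpv1 replicate 3 was the highest for Kcnq5 (116 CPM, against 12.8 to 34.7 CPM in the other Trpv1 libraries), and without it the value was −3.14 (edgeR adjusted p = 0.00514). In the 4 libraries with at most 1 count of Gh or of Prl the call of Kcnq5 was lost (edgeR adjusted p = 0.113). Ano1 and Scn9a were named after their values were seen. Ano1, a calcium-activated chloride channel gene, held 236 counts in Sst and 0 counts in Trpv1 libraries (edgeR adjusted p = 0.0198). Against a floor of 3 counts over the Trpv1 group that is 66.7-fold higher, with the Sst counts taken as exact. The call of Ano1 was lost without Trpv1 replicate 1 (edgeR adjusted p = 0.0567) or 3 (0.0600). Scn9a, a sodium channel gene of pain neurons, stood at 663 ± 68.8 CPM in Sst and 1044 ± 213 CPM in Trpv1 libraries (−0.65, edgeR adjusted p = 0.0272). The call of Scn9a was lost without any single library other than Sst replicate 4 or Trpv1 replicate 4, with values from −0.69 to −0.54 (edgeR adjusted p from 0.0521 to 0.109). With a term for Xist the calls of Thbd, Cpm, Prkcb, Ano1 and Scn9a were lost (edgeR adjusted p from 0.0819 to 0.165), and those of Mrgpra3, Mrgprx1, Trpa1 and Kcnq3 held in all 19 alternatives.

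**Figure D4:**
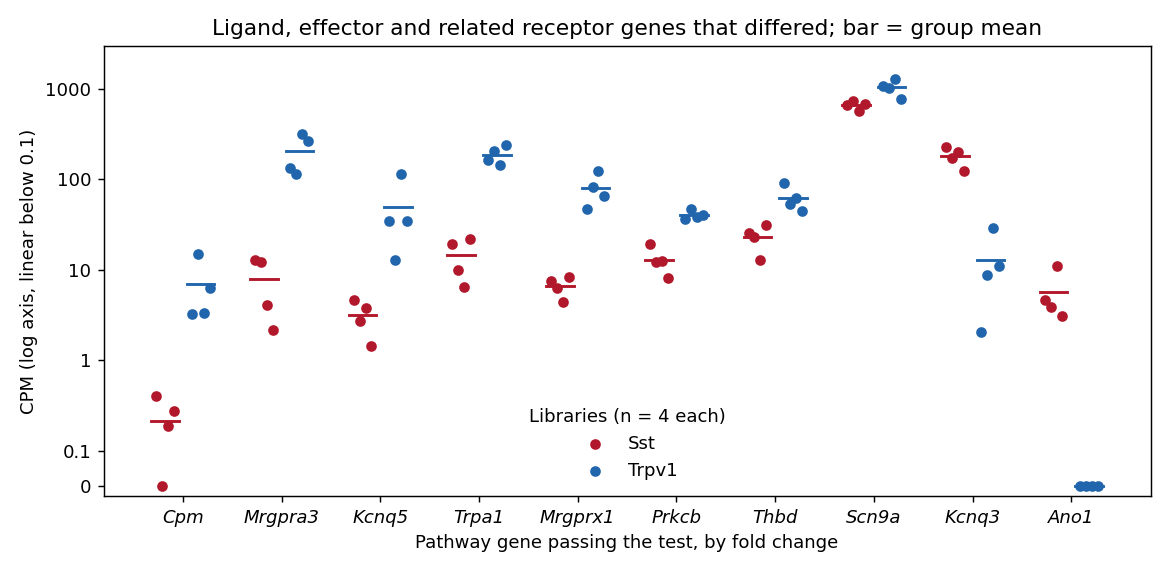
CPM in each library (points) and group mean (bars) of 10 of the 11 called genes from the 9 lists of ligand, enzyme, effector and related receptor genes, Sst in red left of Trpv1 in blue, ordered by fold change on a log axis that is linear below 0.1. Kcnq3 and Ano1 have higher means in Sst, and the remaining 8 genes in Trpv1 libraries.

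The genes whose levels followed F2rl2 and Ednrb most closely over the 8 libraries were looked up among 7202 genes whose log2 CPM averaged 3 or more. For F2rl2 these were Nipsnap1, Unc13c and Psmd14 (Pearson's r of log2 CPM 0.956, 0.950 and 0.935), and for Ednrb they were Ttc19, Ppip5k2 and Tox2 (r of 0.974, 0.966 and 0.937). None of these 6 genes was called between groups (edgeR adjusted p from 0.375 to 0.943). The points share libraries, depth and pools of cells, and the best of so many correlations over 8 points are high by selection, so they are a description only.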

How the data were processed

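The authors deposited a table of raw, not normalized read counts by gene symbol for 8 libraries. Per the submitters' processing notes, bcl2fastq 2.17, Trimmomatic 0.33 and featureCounts were used with the mouse build GRCm38. Aligner, annotation and strand setting: not given in the sources used here. Per the labels' protocols, RNA from picked cells was amplified with the Ovation system before Nextera XT libraries were made. The part of amplification in the spread of scarce transcripts was not tested. Columns were matched to samples by name, with 0 left unused.

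Counts were filtered (edgeR filterByExpr, minimum count 10), scaled by TMM over the genes kept and compared with edgeR 4.0.16 (R 4.3.3; robust quasi-likelihood F test in its newer form, legacy = FALSE, two-sided, Benjamini-Hochberg, threshold 0.05). Fold changes are Sst over Trpv1. Standard errors were derived from fold change and F, and 95% intervals from them. CPM values are TMM-scaled; for log2 CPM the prior count was 2. Genes had a common biological coefficient of variation of 69.1%. Libraries within a group differed beyond counting error (chi-square per degree of freedom at least 43.7). Per the labels' protocols, there were 4 independent samples per genotype and each picking session held a sample of each genotype, but no label ties replicate numbers to sessions.

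Exon lengths, coordinates and overlaps came from GENCODE M21 (GRCm38) and promoters from RefSeq (GRCm38.p6). The code was tested on data simulated with the spread fitted here, in which 100 genes changed 2-fold and 100 changed 4-fold. It called 6% of the former, 32% of the latter and 0 unchanged genes. Fewer genes were changed there than were called in the data, so these shares hold for that setting only. Alternatives were other size factors, filters, DESeq2 1.42.0, limma 3.58.1 voom with sample weights, no robust estimation, the replicate number as a block, a term for Xist, subsets of libraries, single libraries left out, and, added after seeing the data, edgeR's older fit. Members and lists were chosen with earlier results of these data known. Named genes were all members, up to 4 called genes with the smallest p per list (otherwise its most abundant tested gene), and the 3 genes most like Ednrb (smallest p) and F2rl2 (most abundant). Of the genes this rule names, 1 is not reported here.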

Additional observations from a re-analysis of the deposited data

Results flagged for a closer look

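A library was flagged where its CPM stood apart from the other 3 of its group by more than Dixon's 95% critical value for 4 samples (gap to the nearest library over the group's range). Of 18 groups of values with counts 5 were flagged. Chance flags about 1 in 20 groups of normally distributed values, which does not hold for skewed low counts, so the number of flags is not set against it. F2rl1 stood at 131 CPM in Sst replicate 4, the others of that group reaching 25.1 CPM at most. Hrh1 stood at 29.4 CPM in Sst replicate 2, the others reaching 4.58 CPM. Bdkrb1 stood at 1.30 CPM in Sst replicate 3, the others at 0, a case that is always marked because a single library held counts. Ednra stood at 4.99 CPM in Trpv1 replicate 4, the others below 2.2 CPM. Hrh3 stood at 1.02 CPM in Trpv1 replicate 2, the others reaching 0.103 CPM. The flagged values lie in 5 different libraries.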

How the results depend on the processing

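No receptor gene was called under any of the 19 alternatives. Over all genes the count of 751 became 493 with edgeR's older fit, 435 with a term for Xist, 360 in the 6 libraries with Xist, and 71 in the 4 libraries (3 Sst and 1 Trpv1) that held no more than 1 count of either Gh or Prl, pituitary genes seen in the rest. There the lone Trpv1 library is assumed to vary like the Sst group. Leaving out single libraries gave 498 to 770. The 11 called pathway genes became 6, 5 and 4 in the same Xist and Gh/Prl settings, and 6 to 14 with single libraries left out. In the 4 libraries Hrh1, F2r, F2rl2 and Ednrb changed sign (log2 fold changes −1.07, 0.31, −0.24 and 0.62). The cause of these shifts was not tested, beyond the fewer samples. Replicate numbers did not pair the libraries: deviations of same-numbered libraries correlated between −0.0296 and 0.0316. With a replicate block 572 genes, 10 pathway genes and 0 members were called, and the call of Scn9a was lost (edgeR adjusted p = 0.0768). Bdkrb1, Bdkrb2 and Hrh3 had the fewest counts of the members, 14, 18 and 85 over all libraries. The part of sequencing depth in these low counts was not tested. The stricter filter also left Hrh1 and Ednra untested.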

Other observations

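Pla2g4a, which encodes a phospholipase that releases arachidonic acid downstream of Gq, was left untested by the filter. It held 334 counts in Sst and 28 counts in Trpv1 libraries, and stood highest in Sst replicate 4 (20.4 CPM), which was also highest for F2rl1. Endothelin 3, encoded by Edn3, held 5 counts in Sst and 75 counts in Trpv1 libraries, all of these 75 in Trpv1 replicate 2, and the aminopeptidase gene Xpnpep2 0 counts in Sst and 82 counts in Trpv1 libraries, mostly in Trpv1 replicate 1 (7.35 CPM, against 0 to 1.27 CPM in the other Trpv1 libraries). These genes were picked after their values were seen.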
